A study of Oncorhynchus mykiss with 15 samples.

Results

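Mature adipocytes of rainbow trout were searched for genes that were low in intramuscular fat alone, and 7 such genes were found among the 64494 of the count table. The genes were chosen by their level in these same libraries. Their mean level had to be at least 10 CPM in visceral and in subcutaneous fat and within 1.5-fold between those depots, and the lowest visceral or subcutaneous library had to exceed 1.5 times the highest intramuscular library. A gene whose subcutaneous libraries all stood above every other library would have been left out, and none had to be. CPM are counts scaled to a common library total by TMM, which corrects for a few genes that take many reads in a library.

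The adipocytes came from intramuscular fat (IMAT), visceral fat (VAT) and subcutaneous fat (SAT) of adult trout, with 5 libraries for each depot. All fish were untreated, held under the same rearing conditions and fasted for a day before sampling, and the adipocytes were freed from the dissected fat with collagenase. The labels give no strain, and the fish behind each library is not recorded in them, so p-values measure the spread between these libraries, which may in part be technical. Library totals ran from 2413951 to 4199494 counts in IMAT, from 5872244 to 9414223 in VAT and from 4203986 to 7243006 in SAT.

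Adipocytes store fat as triglyceride in a lipid droplet and release it as fatty acids when other tissues need fuel. Visceral fat lies around the gut and is the main fat store of trout, subcutaneous fat lies under the skin, and intramuscular fat lies between the muscle blocks, close to the fibres that burn fatty acids. The count table gives Ensembl identifiers and pairs none of them with a name, and the supplied RefSeq table carries no Ensembl identifier. The 7 genes are therefore given by identifier, no function is attached to them, and neither the gene lists nor the markers of adipocytes, muscle, blood or other cells could be applied. In bulk samples, fewer cells of a type and less RNA per cell cannot be told apart.

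All 7 genes were measured well above the counting floor in VAT and SAT, and at low counts in IMAT. A single library held between 2 and 168 counts of a member in IMAT, against 249 to 2347 in VAT and 155 to 1855 in SAT. The summed level of the 7 genes was 178.6 ± 40.8 CPM in IMAT (SD, n = 5), 728.5 ± 137.5 CPM in VAT and 620.9 ± 143.9 CPM in SAT, so IMAT held 0.245 times the VAT sum and 0.288 times the SAT sum. As a share of all counts they took 0.0164% ± 0.00681 in IMAT, 0.0781% ± 0.0131 in VAT and 0.0646% ± 0.00834 in SAT. The 5 IMAT sums, 116.4 to 218.6 CPM, lay below the VAT sums of 487.5 to 816.7 CPM and the SAT sums of 430.9 to 769.1 CPM. These values and the rule come from the same libraries, so they describe the genes and test nothing.

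**Figure D1:**
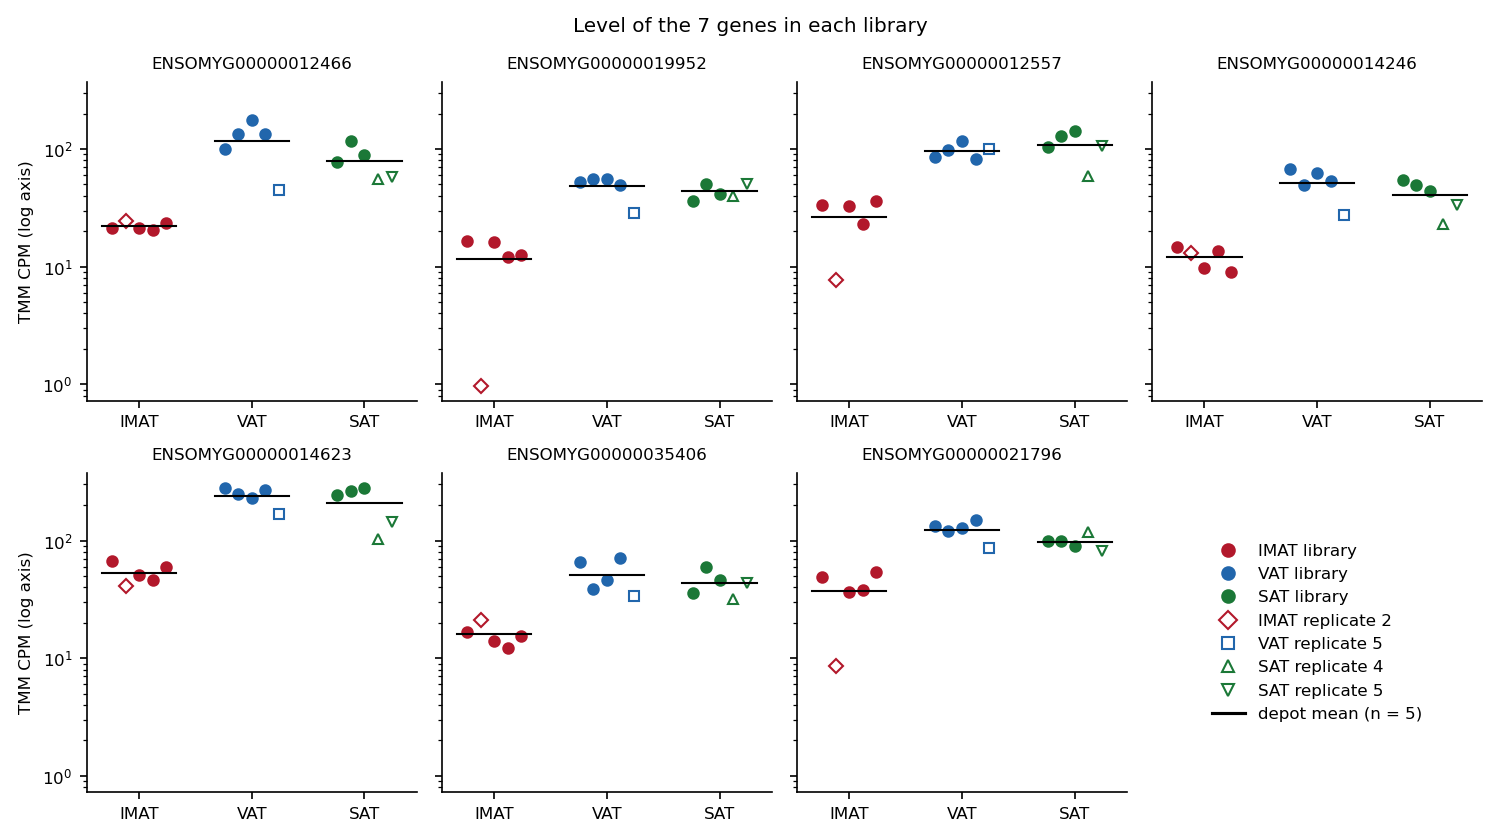
TMM CPM of each of the 7 genes (log axis) in the 5 libraries of IMAT, VAT and SAT, with one point per library and a line at the depot mean. In every panel the IMAT points lie below all others. IMAT replicate 2 is far below the other IMAT libraries in 3 panels, VAT replicate 5 is the lowest VAT library in 6 panels, and SAT replicate 4 the lowest SAT library in 5.

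ENSOMYG00000012466 was the gene with the widest separation, and the one with the least spread in IMAT. It was measured at 21.2, 24.4, 21.4, 20.5 and 23.5 CPM in IMAT replicates 1 to 5. The VAT replicates had 100.8, 133.0, 176.4, 135.4 and 44.6 CPM, and the SAT replicates had 77.7, 116.2, 89.4, 55.2 and 58.4 CPM. The lowest of the other libraries, VAT replicate 5, was 1.83 times the highest IMAT library. IMAT varied 1.19-fold between its extremes, against 3.96-fold in VAT and 2.11-fold in SAT. The narrow IMAT spread depends on the TMM scaling, since replicate 2 held 51 counts of this gene among 4199494, and replicate 5 held 65 among 2439744. The mean of 22.2 ± 1.69 CPM in IMAT (SD, n = 5) was 0.188 times that in VAT (118.0 ± 49.0 CPM) and 0.28 times that in SAT (79.4 ± 24.9 CPM). Of the 7 genes it was the nearest to the limit on the other side of the rule, with a VAT mean 1.49 times its SAT mean. Its place within that limit rested on the low value of VAT replicate 5. The log2 fold change of VAT against SAT was 0.572 with all libraries and 0.758 with that library alone left out. On pooled counts, 262 in IMAT, 4984 in VAT and 2399 in SAT, the scaled ratio of IMAT to VAT was 0.192 (95% exact interval 0.169 to 0.218, counting error only) and that of IMAT to SAT was 0.282 (0.247 to 0.32).

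ENSOMYG00000019952 had the second widest separation, 1.76, and the widest spread in IMAT. Its level was 16.4, 0.958, 16.3, 12.2 and 12.7 CPM in IMAT replicates 1 to 5. The VAT replicates had 52.9, 55.5, 55.9, 49.3 and 28.8 CPM, and the SAT replicates 36.2, 50.6, 41.1, 40.1 and 50.2 CPM. Replicate 2 stood far below the other IMAT libraries and replicate 5 below the other VAT libraries, while the SAT libraries lay within 1.39-fold. The means were 11.7 ± 6.32 CPM in IMAT (SD, n = 5), 48.5 ± 11.3 CPM in VAT and 43.7 ± 6.42 CPM in SAT. The value of IMAT replicate 2 rests on 2 counts (95% exact Poisson interval 0.116 to 3.46 CPM), where the mean of the other 4 IMAT libraries would have given 30.0 counts.

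ENSOMYG00000014623 is described for its high read count, and the files give no gene lengths by which levels of different genes could be compared. It was measured at 67.1, 40.7, 51.2, 46.1 and 59.3 CPM in IMAT replicates 1 to 5. The VAT replicates had 281.6, 251.0, 232.0, 267.9 and 166.7 CPM, and the SAT replicates 246.0, 265.0, 282.5, 103.7 and 142.8 CPM. VAT replicate 5 and SAT replicates 4 and 5 were the lowest libraries of their depots, and the other VAT and SAT libraries overlapped between 232.0 and 282.5 CPM. Without these 3 libraries, the lowest remaining library was 3.46 times the highest IMAT library, against 1.54 times with them. That was the largest such ratio of the 7 genes, and the smallest was 1.64, against 1.51 with them, in ENSOMYG00000021796. Leaving out the lowest libraries raises this ratio by itself. The means were 52.9 ± 10.5 CPM in IMAT (SD, n = 5), 239.8 ± 44.9 CPM in VAT and 208.0 ± 79.7 CPM in SAT.

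ENSOMYG00000021796 only just met the rule, with a separation of 1.51. The IMAT replicates had 49.2, 8.62, 36.3, 38.3 and 54.3 CPM, the VAT replicates 132.4, 120.3, 127.5, 149.0 and 86.1 CPM, and the SAT replicates 98.7, 99.8, 89.1, 118.0 and 81.7 CPM. The highest IMAT library, replicate 5, and the lowest SAT library, also replicate 5, were the nearest pair. Its means of 37.3 ± 17.7 CPM in IMAT (SD, n = 5), 123.1 ± 23.2 CPM in VAT and 97.5 ± 13.7 CPM in SAT gave the smallest difference between IMAT and SAT among the 7 genes, 0.383 times.

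The other 3 genes were not named by the rule on named genes, and their identifiers are given because the group is small. ENSOMYG00000012557 was the only one of the 7 with a lower mean in VAT than in SAT, 0.892 times. It ran from 7.66 to 35.8 CPM in IMAT, with 31.3 CPM as the mean of the 4 libraries other than replicate 2. The range was 81.7 to 116.5 CPM in VAT and 58.8 to 141.9 CPM in SAT, where replicate 4 was the lowest. ENSOMYG00000014246 ran from 9.05 to 14.8 CPM in IMAT, from 27.5 to 67.0 CPM in VAT and from 23.1 to 55.1 CPM in SAT. ENSOMYG00000035406 ran from 12.2 to 21.1 CPM in IMAT, from 33.7 to 70.6 CPM in VAT and from 32.1 to 59.1 CPM in SAT. In ENSOMYG00000035406 IMAT replicate 2 was the highest IMAT library on the TMM scale, in contrast to its place in ENSOMYG00000012557. That rank depends on the scaling, since replicate 2 held 44 counts of this gene among 4199494, and replicate 5 held 43 among 2439744.

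On the TMM scale IMAT replicate 2 thus split the group. In ENSOMYG00000019952, ENSOMYG00000012557 and ENSOMYG00000021796 the mean of the other 4 IMAT libraries was 15.0, 4.08 and 5.16 times its level. In the remaining 4 genes that ratio was between 0.694 and 1.37. A ratio above 4 was found in 5.04% of the 9059 genes that passed the same limits on level and closeness in VAT and SAT (457 genes). IMAT replicate 2 also had the lowest TMM factor of all libraries, 0.501, against 0.894 to 1.14 in the other IMAT libraries, and its part in the split was not tested. As a share of all counts, without TMM, the 7 genes together took 0.00579% in IMAT replicate 2. In the other IMAT libraries that share was 0.0158% to 0.0238%. Without it, the separation of the 7 genes ran from 1.51 to 1.91. All 7 still met the rule, in a group of 9 genes, which leaving out an IMAT library favours.

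In the fit across all genes with edgeR's quasi-likelihood test and Benjamini-Hochberg adjustment at 0.05, 7 of the 7 genes were lower in IMAT than in VAT, where 8.12% of the 25695 genes tested were called lower. All 7 were also called lower in IMAT than in SAT, where 3.22% of all genes were. Between VAT and SAT 0 of the 7 were called, where 8.13% of all genes were called in either direction. At an unadjusted p under 0.05 the last count was also 0, with edgeR and with DESeq2. The rule used these contrasts and fixed these counts, so nothing is read from them. The log2 fold change of IMAT ran from -2.41 to -1.68 against VAT and from -2.02 to -1.38 against SAT. All 7 genes passed the filter on low counts, which the rule requires.

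The rule selected on spread as much as on the size of the difference. Of the 25695 genes tested, 11135 averaged at least 10 CPM in VAT and in SAT, and 9059 of these had means within 1.5-fold. In 5119 of the 9059 genes the IMAT mean was below both other means. All 5 IMAT libraries lay below all 10 others in 161 of them, and in 1.21% of all genes tested. The separation of 1.5 left 7. The lower of the VAT and SAT means was 2.61 to 3.93 times the IMAT mean in the 7 genes (median 3.58), against a median of 1.05 over the 9059. A difference of at least 2.61 times was found in 89 of the 9059 genes, so 82 genes with a mean difference in the range of the 7 or beyond it were not chosen, and in 55 of those at least 1 IMAT library overlapped another depot.

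**Figure D2:**
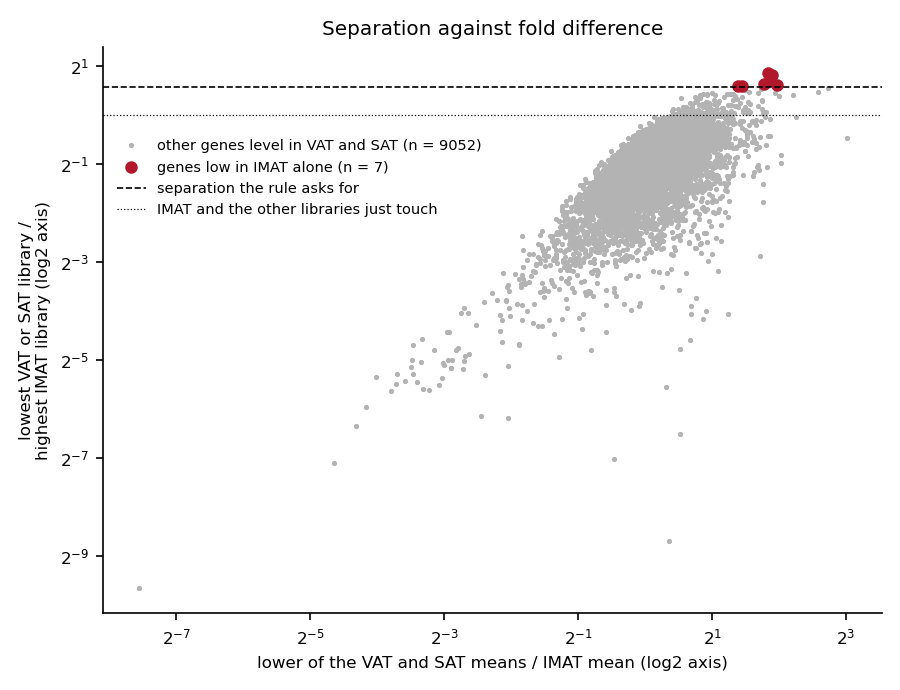
Lowest VAT or SAT library over the highest IMAT library against the lower of the VAT and SAT means over the IMAT mean, both on log2 axes, for the 9059 genes level in VAT and SAT. The 7 genes are the points above the dashed line at 1.5, and several grey points with larger mean differences lie below it.

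Just inside the limit stood genes with a separation of 1.51 and 1.52, and just outside it genes with 1.47 and 1.45. The gene at 1.47 had a larger ratio between the means than any of the 7, with 2.72 CPM in IMAT, 19.1 CPM in VAT and 18.1 CPM in SAT. In CPM its difference was smaller than theirs. Its IMAT mean was near the level that 3 counts give in IMAT, 1.09 to 1.44 CPM, so the ratio rests on few counts. On the other limit, 19 genes with at least 10 CPM in VAT and SAT were separated by over 1.5 times when the means of VAT and SAT could differ freely. Of these, 11 had a VAT mean over 1.5 times the SAT mean, 1 had a SAT mean over 1.5 times the VAT mean, and 7 were level. The nearest gene outside had a SAT mean 1.54 times its VAT mean.

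The opposite pattern was counted in the same way. Among the same 9059 genes, 37 had all 5 IMAT libraries over 1.5 times the highest of the 10 others. With the minimum of 10 CPM set on the high depot in place of the other depots, 150 genes were high in IMAT alone, 28 in VAT alone and 1 in SAT alone, each with level means in the other depots. The same separation applied to the other depots gave 80 genes low in VAT alone and 1 gene low in SAT alone. These counts were not compared by a test.

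In the 7 genes the lowest VAT and SAT values came mostly from 3 libraries. VAT replicate 5 was the lowest VAT library in 6 of the 7 genes, SAT replicate 4 the lowest SAT library in 5 and SAT replicate 5 in 1. Over the 9059 level genes VAT replicate 5 was lowest in its depot in 38.4%, SAT replicate 4 in 26.8% and SAT replicate 5 in 38.3%, against 10.2% to 21.7% for each of the other 7 VAT and SAT libraries. The lowest of all 10 VAT and SAT libraries was one of these 3 in each of the 7 genes. These libraries had 43239, 46175 and 44738 genes with at least 1 count, against 36958 to 41316 in the other VAT and SAT libraries. At equal depth the numbers were 35484, 41561 and 41939, against 31792 to 36317, so only the SAT libraries stood above the others there. The 3 libraries also had the highest TMM factors of all 15 libraries, 1.15, 1.23 and 1.29. The part of either measure in the result was not tested.

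Leaving out these 3 libraries together raised the number of genes low in IMAT alone to 167, with the 7 genes among them. The opposite pattern had 42 genes against 37, and the level genes went from 9059 to 8461. The 3 libraries were often the lowest of their depots, so leaving them out favours a rise of the lowest VAT or SAT value. The opposite pattern rests on the highest such value, so no contrast is drawn between the changes in number. A rule over 12 libraries is also easier to meet than one over 15. With a single library left out, 16 genes met the rule when it was VAT replicate 5, 21 when it was SAT replicate 4 and 13 when it was SAT replicate 5, and 6 to 9 without any one of the other 7 VAT and SAT libraries. Single IMAT libraries moved the count as far, which was 18 without replicate 1, 23 without replicate 5, and 9, 10 and 9 without replicates 2, 3 and 4. The 7 genes stayed in the group whichever IMAT library was left out. Leaving out an IMAT library cannot raise the highest IMAT value, apart from a change in scaling, so the 7 genes could hardly drop out. When a VAT or SAT library was left out, 5 to 7 of them stayed.

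**Figure D3:**
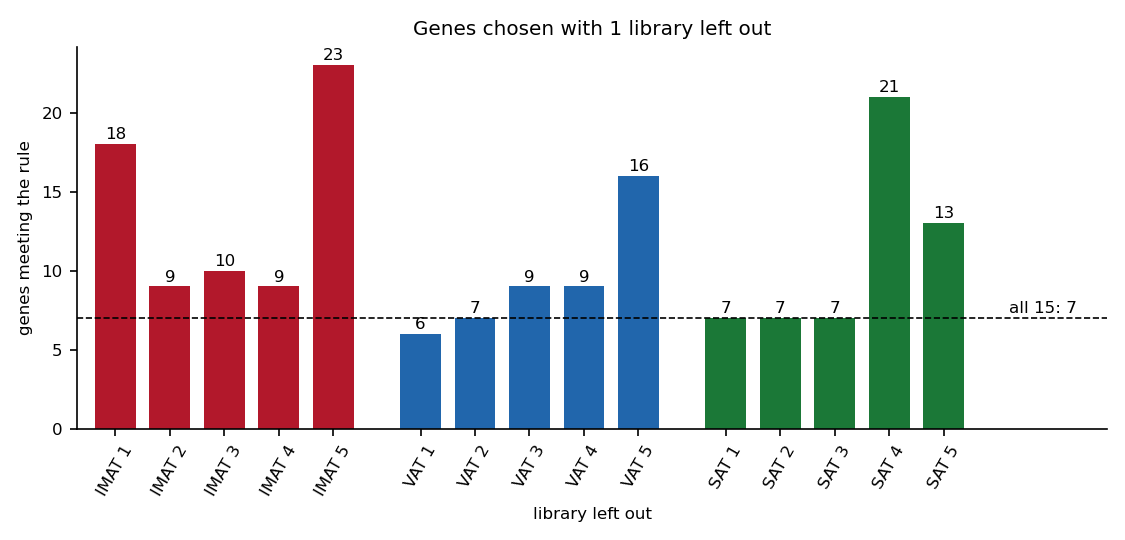
Number of genes that met the rule when 1 library was left out, by library (IMAT red, VAT blue, SAT green), with a dashed line at the 7 genes found with all 15. The counts ran from 6 to 23, and the bars of IMAT replicates 1 and 5, VAT replicate 5 and SAT replicates 4 and 5 stand highest.

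A library that is left out has values that the rule did not use. For genes chosen without an IMAT library, that library lay below all VAT and SAT libraries in 16 of 18 genes (replicate 1), 9 of 9 (replicate 2), 9 of 10 (replicate 3), 8 of 9 (replicate 4) and 15 of 23 (replicate 5). Over the 9059 level genes the same was true of 15.7%, 36.4%, 22.3%, 27.8% and 14.8% in the same order. The sets include the 7 genes, which meet the rule with all libraries. Of the other genes in each set, 9 of 11, 2 of 2, 2 of 3, 1 of 2 and 8 of 16 had the unused library below all VAT and SAT libraries. These other genes are the ones that failed the rule once that library was used, so its value set them apart. Their shares are therefore no independent check. The full separation was met in 7, 7, 7, 7 and 8 genes of each set, and thus by 1 gene beyond the 7, in the set without replicate 5. A chosen gene that meets it with the unused library too meets the whole rule, apart from changes in scaling or the filter. These counts are therefore fixed by the choice of the 7, and nothing is read from them. For genes chosen without a VAT library, the unused library lay above all IMAT libraries in each gene for replicates 1 to 4 (6, 7, 9 and 9 genes), and in 11 of 16 genes for replicate 5. For SAT replicates 1 to 3 it did so in 7 of 7 genes each, for replicate 4 in 16 of 21 and for replicate 5 in 12 of 13. These sets hold 5 to 7 of the 7 genes, which meet the rule with all libraries. Of the other genes, the unused library lay above all IMAT libraries in 1 of 1, 1 of 1, 3 of 3, 3 of 3 and 6 of 11 for VAT replicates 1 to 5. For SAT replicates 1 to 5 it did so in 1 of 1, 1 of 1, 1 of 1, 9 of 14 and 5 of 6. Here too the other genes are those that failed the rule once the unused library was used. Over the level genes, a VAT library lay above all IMAT libraries in 22.5% to 31.5%, and a SAT library in 17.5% to 33.5%. The full separation was met in 6, 7, 8, 9 and 6 genes for VAT replicates 1 to 5, and in 7, 7, 7, 8 and 8 genes for SAT replicates 1 to 5. It thus failed in 10 of the 16 genes for VAT replicate 5, 13 of the 21 for SAT replicate 4 and 5 of the 13 for SAT replicate 5, and in 1 gene for VAT replicate 3. A gene that meets it can fall outside the 7 only through the limits on the VAT and SAT means, scaling or the filter. The choice of the 7 thus largely fixes these counts too, and nothing is read from them.

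Among the 167 genes chosen without the 3 libraries, the unused libraries were spread from the IMAT range to that of the other VAT and SAT libraries. These genes were chosen for a high level in those other 7, which by itself favours a lower place for an unused library. VAT replicate 5 was above the highest IMAT library in 92 of the 167 genes (55.1%) and over 1.5 times it in 32. SAT replicate 4 was above it in 125 genes (74.9%) and over 1.5 times it in 54, and SAT replicate 5 in 116 (69.5%) and in 37. Over the 9059 level genes, VAT replicate 5 and SAT replicates 4 and 5 lay above the highest IMAT library in 31.5%, 19.5% and 17.5%. The 167 genes were also chosen for low IMAT values, which by itself favours a place above IMAT. The level genes had no such condition and were defined with all 15 libraries. Nothing is therefore read from the higher shares among the 167. In the same order, 78, 96 and 103 of the 167 genes lay between the highest IMAT library and the lowest of the other 7. A further 14, 29 and 13 of the 167 lay within or above those 7. The unused libraries lay below the lowest of the other 7 in 153, 138 and 154 of the 167 genes (91.6%, 82.6% and 92.2%). Over all 9059 level genes the shares below the lowest of the other 7 were 34.5%, 32.1% and 39.8%. Apart from the 7 genes, the 167 are genes that failed the rule once the 3 libraries were used. Low values in these libraries thus largely set them apart, so the shares among the 167 are no independent check. Positions were taken on a log2 scale with the IMAT mean at 0 and the mean of the other 7 libraries at 1. Over the 167 genes the median positions of the 3 unused libraries were 0.326, 0.492 and 0.434. The 7 genes lay at medians of 0.693, 0.606 and 0.733 on this scale, and the rule favours these higher medians. Not every one of the 7 lay above the median of the 167. In SAT replicate 4 their lowest position was 0.427. In 8 of the 167 genes, all 3 unused libraries exceeded 1.5 times the highest IMAT library. The 7 genes are among these 8 by the rule that chose them. They are also in each count of genes above, and over 1.5 times, the highest IMAT library.

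**Figure D4:**
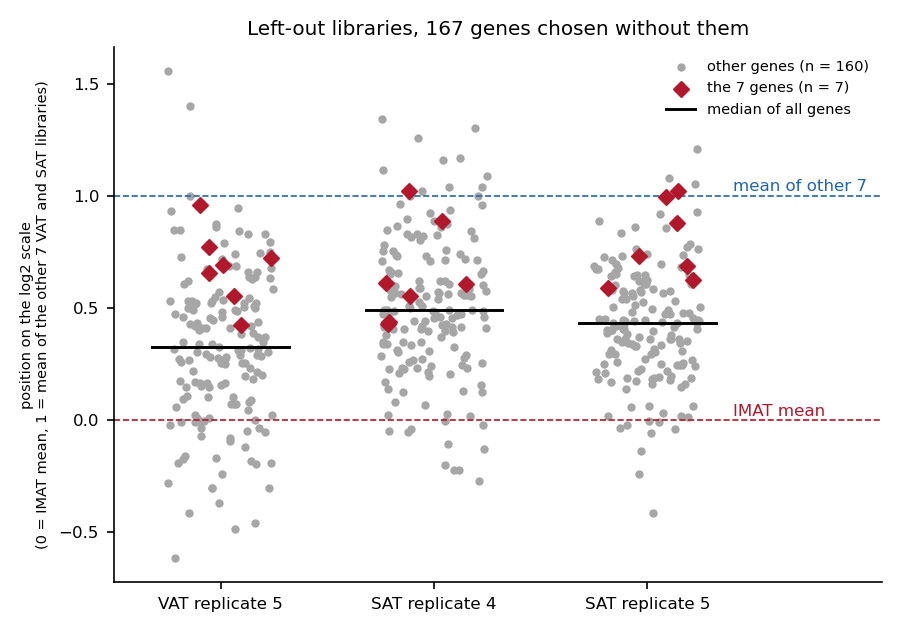
Position of VAT replicate 5, SAT replicate 4 and SAT replicate 5 on a log2 scale between the IMAT mean (0) and the mean of the other 7 VAT and SAT libraries (1), for the 167 genes chosen without these 3 libraries. Each point is a gene, diamonds are the 7 genes chosen with all 15 libraries, and black lines are medians over the 167 genes, which lie at 0.326, 0.492 and 0.434.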

How the data were processed

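RNA was sequenced from mature adipocytes after removal of ribosomal RNA, per the labels' protocols. The authors deposited raw counts for each gene, which were used as they stand. Trimmomatic 0.30, STAR 2.5.2b, featureCounts from Subread 1.5.2 and DESeq2 1.6.3 are named in the submitters' processing notes. Build, annotation, strand setting and the handling of reads with several matches were not given in the sources used here. Trout carry many similar gene copies, so a gene with a near-identical or overlapping partner may have an uncertain count.

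Genes were kept with filterByExpr by depot (minimum count 10, minimum total 15), which left 25695 genes with 99.0% of the counts, and were scaled by TMM in edgeR 4.0.16 (R 4.3.3). The rule was applied to the resulting CPM. Differences were fitted over all 15 libraries with robust quasi-likelihood tests, adjusted over all genes within each comparison. DESeq2 1.42.0 was an alternative. Intervals are exact at 95% and cover counting error only. A floor of 3 counts equals 1.09 to 1.44 CPM in IMAT, 0.28 to 0.466 CPM in VAT and 0.448 to 0.569 CPM in SAT. Positions used log2(CPM + 0.5). The 30 pairs of libraries within depots differed by at least 6.37 in chi-square per degree of freedom, so no library appears to be a second copy of another; whether libraries share a fish is unknown.

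The genes and the rule were chosen with earlier results of these data known, and the 3 libraries left out together were known to differ. The genes to be described library by library were those with the 2 largest separations and the 2 highest mean CPM in VAT and SAT.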

Additional observations from a re-analysis of the deposited data

Results flagged for a closer look

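Within each depot, the highest and the lowest library were examined for a distance to their neighbour above 0.71 of the range of the 5, in 27 sets of values (7 genes, their sum and the library total, in 3 depots). This was so in 4 sets, where chance flags about 1 in 20 and so gives about 1.35 for independent groups. IMAT replicate 2 had 0.958 CPM of ENSOMYG00000019952, against 12.2 to 16.4 CPM in the other IMAT libraries, and a total of 4199494 counts, against 2413951 to 2655266. VAT replicate 5 had 28.8 CPM of ENSOMYG00000019952, against 49.3 to 55.9 CPM in the other VAT libraries. Its summed level of the 7 genes was 487.5 CPM, against 746.0 to 816.7 CPM.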

How the results depend on the processing

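The 7 genes kept their calls and directions in all 22 alternatives with a fit: 7 were lower in IMAT than in VAT and 7 than in SAT with other scaling, no filter, equal depth, DESeq2, the replicate block, each library left out, and the 3 libraries left out together. No call was lost in 308 fold changes, which the choice of the genes favours. Between VAT and SAT, 0 to 1 was called when 1 library was left out, the 1 being ENSOMYG00000012466 without VAT replicate 5 (log2 fold change 0.76, adjusted p = 0.0438 by edgeR). With the replicate block, 7, 7 and 0 of the genes were called. Same-numbered libraries correlated from -0.131 to 0.542 in their deviations from the depot means, and different-numbered libraries from -0.434 to 0.305. In the 3 pairs of depots, 2, 1 and 2 of 5 libraries correlated best with their own number. Libraries were taken as unpaired in the main fit, and whether some numbers share a fish is not known.

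The number of genes that met the rule was 167 without the 3 libraries named above, 21 with library totals in place of TMM, 14 without a filter, 34 with a looser separation, 0 with a separation of 2, 4 at a mean of 50 CPM and 4 with closer VAT and SAT means, and 6 to 23 when 1 library was left out. Library totals moved the median gene by -0.29 (IMAT against VAT) and -0.28 (IMAT against SAT) on the log2 scale. DESeq2 size factors gave 7 genes and equal depth 8, each with 6 of the 7 among them. With library totals or no filter, 5 of the 7 were among them. The count of 42 genes with the opposite pattern was added after the data had been seen. IMAT had the lowest depth, and down to 2 counts of a gene in a library.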
